A study of Homo sapiens with 6 samples.

Results

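The 14-3-3 genes encode small acidic adaptor proteins that work as dimers. Human cells have 7 of them, and all were examined here by symbol in A549, a line from a human lung adenocarcinoma: SFN, YWHAB, YWHAE, YWHAG, YWHAH, YWHAQ and YWHAZ. These 7 genes are among 62729 in the authors' annotated table and 63152 counted, and all 7 passed the filter on low counts. Cells were reverse transfected with 10 nM siRNA and harvested for RNA at 72 hours. The siRPS19 group received an siRNA pool against RPS19, a small-subunit ribosomal protein gene, and the siOTP group a non-targeting control, with 3 biological replicates each. The pool is of the siGENOME product line and the control of the ON-TARGETplus line, so target and reagent chemistry differ together and cannot be told apart.

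A 14-3-3 dimer binds proteins that carry a phosphorylated serine or threonine in a suitable sequence. It can hold them in the cytoplasm, hide or expose a surface, or keep an enzyme inactive. The 6 YWHA genes are expressed in most tissues. SFN, also called stratifin or 14-3-3 sigma, is mainly an epithelial gene, prefers to pair with itself, and is a known target of p53 that holds CDK1 and cyclin B in the cytoplasm after DNA damage. Proteins were not measured here, and the values below are of mRNA.

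RPS19 itself fell 35.3-fold, from 1469.5 ± 96.5 to 41.6 ± 4.90 CPM (counts scaled to library size with TMM factors). Values with ± are the mean and SD of the 3 libraries of a group (n = 3) unless marked SE, and levels of genes are in CPM unless RPKM is named. Counts on genes ran from 20814110 to 23889372 per library. Of 17171 genes tested with edgeR's quasi-likelihood test, 78.3% differed, 39.5% being higher and 38.9% lower in siRPS19, at a Benjamini-Hochberg adjusted p under 0.05, and for 79.7% the groups did not overlap. TMM scaling assumes that most genes keep their level. With library totals instead, the median log2 fold change moved up by 0.28, 53% of genes were higher and 27.6% lower, and the share of higher genes among the calls went from 50.4% to 65.8%. Directions are therefore given on the TMM scale, and members or named genes whose call turns with library totals are identified. The 5 epithelial markers summed to 1757 to 2230 CPM in siOTP and 1122 to 1264 in siRPS19, mostly from KRT8 and KRT18. Of these 5, KRT8, KRT18 and EPCAM fell (EPCAM not with library totals, at -0.28), and KRT19 rose 6.85-fold and CDH1 1.63-fold. The 5 fibroblast markers summed to 40.3 to 48.6 CPM in siOTP and 20.1 to 27.6 in siRPS19, mostly from COL1A1. Of the 3 that were tested, COL1A1 fell 2.22-fold and THY1 1.36-fold (THY1 not with library totals, at -0.16). PDGFRB, near the floor, rose 3.79-fold, from 0.18 to 0.71 CPM. Alveolar type II markers summed to 1.32 to 1.48 CPM in siOTP and 3.12 to 4.03 in siRPS19, with NKX2-1 and SFTPA1 at 0 counts. Of the 2 tested, NAPSA rose 3.04-fold and SFTPB did not pass (called higher with library totals, at 0.81). Squamous and basal markers, a setting where SFN is usually high, summed to 4.38 to 5.77 CPM in siOTP and 2.94 to 3.14 in siRPS19. The part of these differences in the results below was not tested. In RNA from whole cultures, fewer cells of a kind and less RNA per cell cannot be told apart.

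The promoter of SFN differs in sequence from those of the YWHA genes, and is shown beside 2 of them for that contrast. RefSeq's promoter table (GRCh38.p14) held 6 of the members, SFN, YWHAB, YWHAE, YWHAG, YWHAH and YWHAQ. Over the 250 bases before the start, SFN had 3 CpG dinucleotides, 0.122 of the number its base composition predicts, which is lower than in all but 13.4% of 35116 such windows. The other 5 had 21 to 34 CpG dinucleotides and observed-over-expected ratios of 0.761 to 1.08. Each window runs into bases that GENCODE 29 annotates as exon, and these counts include them. Before the first such base lay 239 bases in SFN, 176 in YWHAH and 94 in YWHAE. Up to that base SFN held 3 CpG dinucleotides, YWHAE 9, YWHAB 17, YWHAG 20, YWHAH 20 and YWHAQ 27. Printed here are SFN with the fewest in 250 bases, YWHAH with the most, and YWHAQ, the most abundant mRNA per length of transcript. Each is read 5′ to 3′ up to the first base that GENCODE 29 annotates as exon. Capitals mark CpG dinucleotides. SFN lies on the plus strand at chr1:26862899-26863137, YWHAH on the plus strand at chr22:31944285-31944460 and YWHAQ on the minus strand at chr2:9631015-9631247.
SFN: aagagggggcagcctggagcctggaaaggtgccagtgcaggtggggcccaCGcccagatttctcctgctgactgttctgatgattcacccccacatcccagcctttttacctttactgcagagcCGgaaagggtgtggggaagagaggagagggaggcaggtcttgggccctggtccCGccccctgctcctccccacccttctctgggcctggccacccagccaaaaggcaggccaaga
YWHAH: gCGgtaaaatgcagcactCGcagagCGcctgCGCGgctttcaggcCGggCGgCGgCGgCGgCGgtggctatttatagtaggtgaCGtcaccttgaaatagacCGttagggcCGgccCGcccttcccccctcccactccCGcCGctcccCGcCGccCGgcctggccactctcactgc
YWHAQ: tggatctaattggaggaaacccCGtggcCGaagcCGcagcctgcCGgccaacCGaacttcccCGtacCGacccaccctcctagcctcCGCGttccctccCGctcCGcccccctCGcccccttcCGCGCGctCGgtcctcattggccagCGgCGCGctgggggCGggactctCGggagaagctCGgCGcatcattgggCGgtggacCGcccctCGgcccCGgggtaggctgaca
In these 3 stretches the capitals number 3 pairs in SFN, 20 in YWHAH and 27 in YWHAQ. On either strand, all 6 windows of 250 bases held GGGCGG, found in 42.6% of all windows. CCAAT was in 2 members, YWHAB and YWHAQ (32.0% of all windows), and TGACGTCA in YWHAH (1.65%). The p53 decamer motif was in none of the 6 windows and in 5.57% of all windows, which says only that these letters are not there.

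In siOTP cells the 14-3-3 mRNAs were abundant. Per length of transcript, YWHAQ was the highest at 417 ± 3.01 RPKM (CPM divided by the transcript length in kilobases). YWHAE followed at 297 ± 3.32, YWHAG at 193 ± 3.80, YWHAZ at 132 ± 1.02 and YWHAB at 117 ± 1.30 RPKM. Each of these steps was larger than the spread of the 3 libraries. YWHAH (73.9 ± 2.53 RPKM) and SFN (73.8 ± 9.95 RPKM) came last and overlapped. Even these 2 were above 96.6% of the 17131 tested genes that have a length. In the authors' deposited table, whose RPKM is scaled to group totals, the siOTP order was the same, with YWHAH at 66.9 and SFN at 66.7. SFN stood at 81.9 there in siRPS19. Both orders rest on the single transcript length that the authors' table gives each gene. In CPM, not per length, YWHAE was highest in siOTP at 1144 ± 12.8, with YWHAQ at 1130 ± 8.17 and YWHAZ at 1128 ± 8.72. SFN, at 97.1 ± 13.1 CPM, was then below YWHAH, at 181 ± 6.2 CPM.

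**Figure D1:**
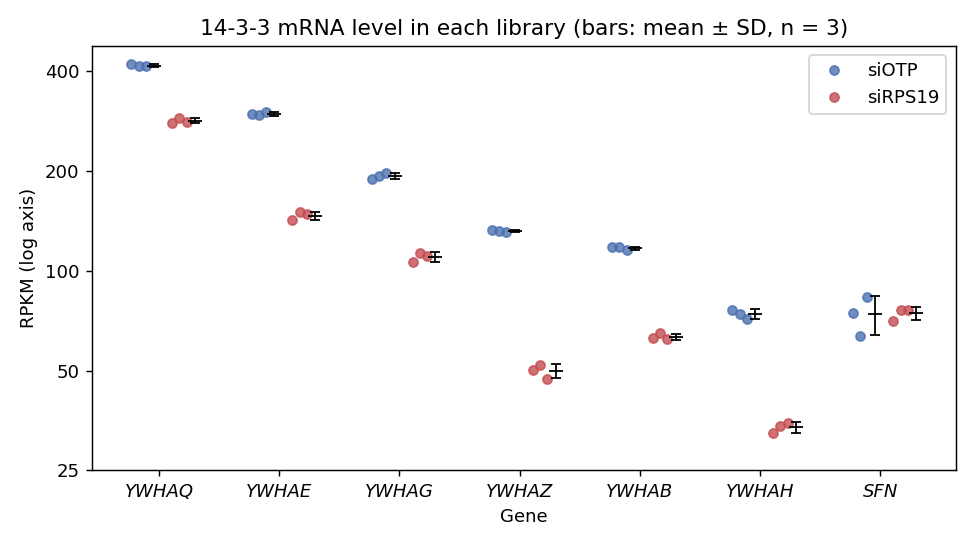
RPKM of each 14-3-3 gene on a log axis, with 1 point per library and black bars for the mean ± SD of 3 libraries. For the 6 YWHA genes all siRPS19 points (red) lie below all siOTP points (blue), and for SFN the groups overlap.

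SFN (ENSG00000175793, chromosome 1, 27189633 to 27190947, hg19) did not differ detectably between the groups. Its level was 98.3, 83.5 and 110 CPM in siOTP replicates 1, 2 and 3 and 93.0, 100.5 and 100.4 CPM in siRPS19. The siRPS19 values lie inside the siOTP range. The log2 fold change was 0.013 ± 0.094 (SE; adjusted p = 0.909, edgeR), with a 95% interval of -0.21 to 0.24, or 0.863 to 1.18 as a ratio. SFN was also the least even member among siOTP libraries, with a coefficient of variation of 13.5% where counting alone gives 2.27% and the other 6 had 0.723% to 3.42%. Without siOTP replicate 2, the lowest of the 6 libraries for SFN, the log2 fold change was -0.10 (adjusted p = 0.0849, edgeR). With library totals it was 0.30 (adjusted p = 0.0251, edgeR), past the threshold, and with upper-quartile factors 0.19 (adjusted p = 0.0907, edgeR).

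CDKN1A, which encodes the cell cycle inhibitor p21 and is the best known p53 target, is set beside SFN as another p53 target. It held 1484, 1333 and 1562 counts in siOTP and 27036, 26034 and 27626 in siRPS19, against 2053, 1650 and 2127, then 2422, 2320 and 2430, for SFN. The ratio of CDKN1A to SFN within a library does not depend on scaling, and it was 14.9 times higher in siRPS19 (log2 ratio -0.41 ± 0.09 against 3.49 ± 0.01; exact two-sided permutation p = 0.1, the smallest that 3 against 3 allow). On a list of 30 p53 targets that holds CDKN1A but not SFN, 29 rose (background 39.5%), with a median log2 fold change of 1.81 against 0.023 over all genes tested. The exception was PLK2, a kinase gene, at 0.045 ± 0.037 (SE), which like SFN was called higher with library totals, at 0.33. MDM2, the ubiquitin ligase gene for p53, rose 5.95-fold.

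All 6 YWHA genes fell, where 38.9% of all tested genes did. For each of them the groups did not overlap, which was so for 79.7% of all genes. YWHAZ (ENSG00000164924, chromosome 8, 101928753 to 101965616, hg19), the zeta gene, fell most. It stood at 1137, 1129 and 1120 CPM in siOTP and 431, 444 and 404 CPM in siRPS19, 2.65-fold lower (log2 fold change -1.41 ± 0.04 SE, adjusted p = 3.89e-17, edgeR). Only 6.66% of tested genes had a fold change as low or lower. YWHAH (ENSG00000128245, chromosome 22, 32340447 to 32353590, hg19), the eta gene, went from 187, 182 and 175 CPM to 79.3, 83.1 and 85.2 CPM, 2.20-fold lower (-1.14 ± 0.04 SE, adjusted p = 9.93e-16, edgeR). YWHAE (ENSG00000108953, chromosome 17, 1247566 to 1303672, hg19), the epsilon gene, whose protein favours partners of another isoform, went from 1141, 1133 and 1158 CPM to 546, 577 and 570 CPM, 2.03-fold lower (-1.02 ± 0.04 SE).

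YWHAB, YWHAG and YWHAQ fell less. YWHAB (ENSG00000166913, chromosome 20, 43514317 to 43537173, hg19), the beta gene, stood at 472, 473 and 463 CPM in siOTP and 252, 260 and 249 CPM in siRPS19, 1.85-fold lower (log2 fold change -0.89 ± 0.04 SE). YWHAG (ENSG00000170027, chromosome 7, 75956116 to 75988348, hg19), the gamma gene, stood at 710, 722 and 738 CPM and then at 398, 425 and 416 CPM, 1.75-fold lower (-0.81 ± 0.04 SE). These changes are nearly the same size. YWHAQ (ENSG00000134308, chromosome 2, 9724101 to 9771143, hg19), the theta gene, fell least, from 1139, 1128 and 1123 CPM to 760, 786 and 766 CPM, 1.47-fold (-0.55 ± 0.04 SE, adjusted p = 4.76e-11, edgeR, the largest of the 6). YWHAQ and YWHAZ thus had almost the same number of counts in siOTP cells and parted after RPS19 siRNA.

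**Figure D2:**
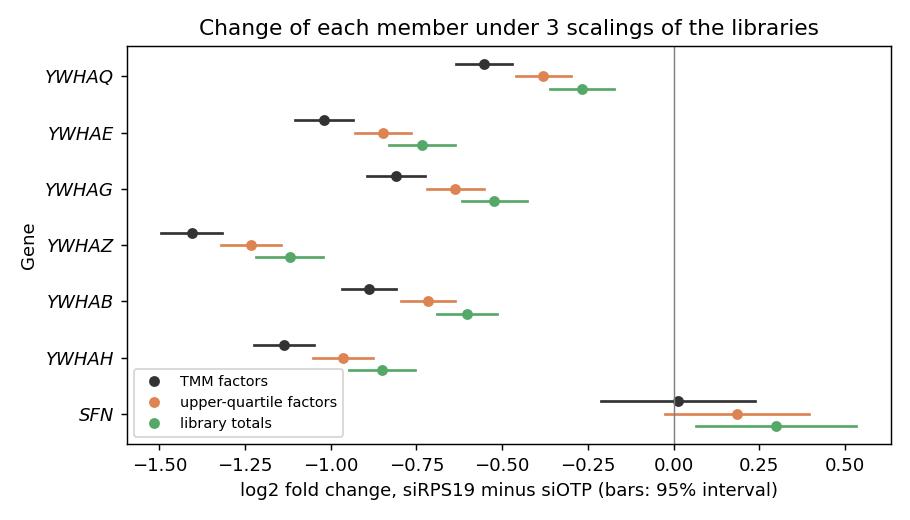
Log2 fold change of each member (dots) with its 95% interval under TMM factors, upper-quartile factors and library totals. The 6 YWHA genes stay below 0 under the 3 scalings, YWHAQ closest at -0.27 with library totals, while the SFN interval spans 0 except with library totals.

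The falls of the YWHA genes held under every scaling tried. With library totals they were smaller, from -0.27 for YWHAQ (adjusted p = 1.10e-05, edgeR) to -1.12 for YWHAZ (adjusted p = 2.98e-16, edgeR). With upper-quartile factors they ran from -0.38 to -1.23.

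The members also changed in proportion to one another. Counts of 2 members in the same library give a ratio that no scaling alters, and 21 such pairs were compared. In 20 of them the 3 siRPS19 ratios lay outside the range of the 3 siOTP ratios (exact two-sided permutation p = 0.1 for each, no smaller p being possible, and Benjamini-Hochberg adjusted 0.105 over the 21). The exception was YWHAG over YWHAB, with a log2 difference of 0.079 (exact permutation p = 0.2). The pairs share members and are not independent. A share for pairs of other genes was not worked out, and taken singly 79.7% of all genes did not overlap between the groups. SFN gained on every YWHA gene, by 1.49-fold on YWHAQ, 1.78-fold on YWHAG, 1.88-fold on YWHAB, 2.06-fold on YWHAE, 2.23-fold on YWHAH and 2.69-fold on YWHAZ. The ratio of YWHAQ to YWHAZ rose 1.81-fold, from a log2 ratio of 0.00 ± 0.00 to 0.86 ± 0.06.

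Summed over the family, 14-3-3 mRNA was at 1308, 1290 and 1313 RPKM in siOTP and at 744, 780 and 762 RPKM in siRPS19. The groups are far apart, and the siRPS19 sum was 1.71-fold lower (log2 difference -0.77, exact permutation p = 0.1, two-sided). With library totals the difference was -0.49.

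The make-up of that pool shifted toward YWHAQ and SFN. YWHAQ held 32.0% ± 0.370 of the summed RPKM in siOTP and 37.3% ± 0.324 in siRPS19. SFN went from 5.66% ± 0.714 to 9.77% ± 0.260. In RPKM, SFN was last in the family in siOTP, level with YWHAH, and had rank 4 in siRPS19. Its lowest siRPS19 library (70.8 RPKM) was above the highest of YWHAB (64.7 RPKM). In CPM, SFN was below YWHAB in siRPS19, at 98.0 ± 4.28 against 254 ± 5.49. YWHAZ dropped from 10.1% ± 0.134 to 6.54% ± 0.300, YWHAE from 22.8% ± 0.121 to 19.2% ± 0.189 and YWHAH from 5.67% ± 0.213 to 4.42% ± 0.125. YWHAB went from 8.97% ± 0.167 to 8.29% ± 0.135. The groups did not overlap for these 6 (exact permutation p = 0.1 each, adjusted 0.117 over 7), and did for YWHAG, at 14.8% ± 0.285 and 14.5% ± 0.178 (exact permutation p = 0.3). In CPM, 79.7% of all genes did not overlap, and shares within other gene sets were not worked out. Shares depend on the single transcript length that the authors' table gives each gene. Taken from CPM, not per length, the gain of SFN was 1.76 points in place of 4.11. The changes were then -1.85 points in place of -3.57 for YWHAE, -0.56 in place of -1.26 for YWHAH and -6.82 in place of -3.58 for YWHAZ, and YWHAB and YWHAG gained, by 0.0949 and 0.990 points.

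**Figure D3:**
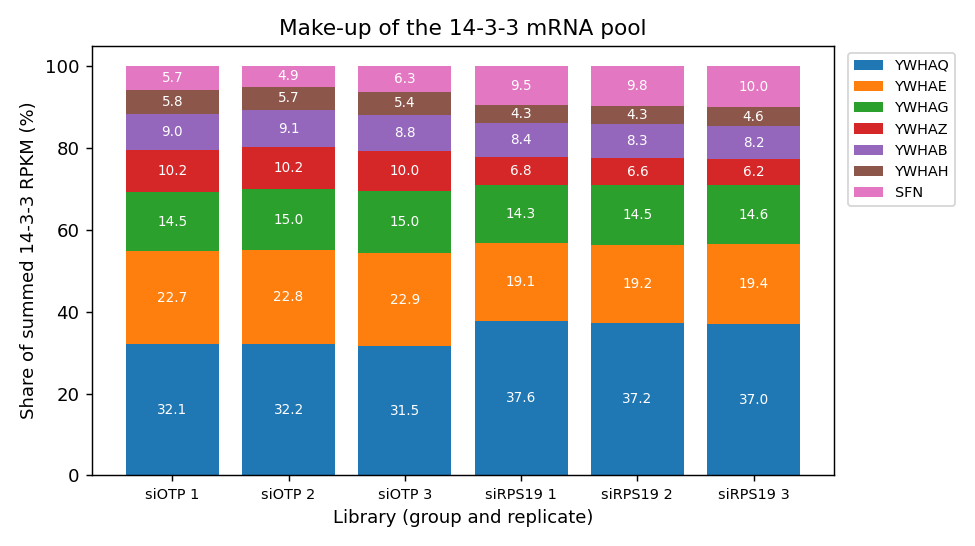
Share of each gene in the summed 14-3-3 RPKM, 1 stacked bar per library, with the percent printed in each segment. SFN takes 4.9 to 6.3% in the siOTP libraries and 9.5 to 10.0% in the siRPS19 libraries, and YWHAZ narrows from about 10% to below 7%.

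Processed copies of these genes in the genome share much of their sequence. The authors' table lists 11 pseudogenes of YWHAZ and YWHAQ by name, with 2488 counts in all. The 7 of YWHAZ held 2.26% to 2.65% of the count of YWHAZ itself in every library. YWHAZP3, the best covered, fell 2.61-fold and YWHAZP5 2.67-fold, close to the fall of YWHAZ. The split of reads between YWHAZ and its copies is uncertain. YWHAZP2, the next, had 27 counts over the siRPS19 libraries. YWHAH overlaps C22orf24 on the other strand, which held 23 counts over the 6 libraries, and a snoU13 gene on its own strand, which held 1. YWHAQ overlaps a Y RNA gene with 0 counts, and the other 5 members overlap no annotated gene.

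Of 7 genes known to act on SFN or its protein, 6 were tested, and 4 fell and 1 rose, where 38.9% of all genes fell and 39.5% rose. TP73, a p53 relative, had too few counts to test. DNMT1, which copies DNA methylation when DNA is replicated, was at 227 ± 4.80 CPM in siOTP and 52.9 ± 2.71 CPM in siRPS19, a fall of 4.29-fold. BRCA1, which works with p53 on the SFN promoter, fell 15.5-fold, and TRIM25, a ubiquitin ligase for the SFN protein, fell 1.89-fold. TP63, a p53 relative of stratified epithelium, was low and fell 1.63-fold, from 4.64 to 2.85 CPM. COP1, another ubiquitin ligase for the protein, rose 1.26-fold.

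The proteins that 14-3-3 binds were read from a list of 53 client genes. Of these, 22 rose, 22 fell and 9 did not pass, with a median log2 fold change of 0.043 against 0.023 for all genes. These shares are near the background of 39.5% and 38.9%. With library totals 31 rose and 16 fell, where 53% of all genes rose and 27.6% fell. Of 7 cell cycle clients 6 fell, with a median of -3.29. CDC25C, the phosphatase that starts mitosis and that 14-3-3 keeps in the cytoplasm, held 499, 495 and 476 counts in siOTP and 6 in each siRPS19 library, 97.5-fold lower. CDC25A fell 9.75-fold and CDC25B 2.97-fold. CDK1, the mitotic kinase whose cytoplasmic retention is assigned to SFN, went from 177 ± 5.25 to 4.49 ± 0.226 CPM, 39.4-fold lower, and WEE1, its inhibitory kinase, 2.12-fold. TERT, the telomerase subunit, fell 28.2-fold, from 12.1 ± 0.414 to 0.422 ± 0.0747 CPM. Its siRPS19 level was near the floor, at 11, 8 and 12 counts. CDKN1B, the inhibitor p27, did not pass, at -0.054 on the log2 scale, and was called higher with library totals, at 0.23.

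Of 13 transcription regulators, many of which 14-3-3 keeps out of the nucleus, 9 rose and 1 fell, with a median of 0.37, where 39.5% of all genes rose and 38.9% fell. CRTC2, CRTC3 and MLXIPL did not pass, at 0.062, -0.020 and 0.36. With library totals these 3 were called higher and 12 rose, where 53% of all genes did. YAP1 rose 1.51-fold and WWTR1 1.24-fold, both effectors of Hippo signalling. FOXO3 rose 1.57-fold, FOXO1 1.39-fold and FOXO4 5.99-fold, the last from 2.22 ± 0.254 to 13.3 ± 1.63 CPM. These 3 FOXO genes encode factors that AKT drives onto 14-3-3. HDAC5 rose 2.53-fold, while HDAC4, of the same deacetylase class, fell 1.84-fold and was the 1 fall.

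Among the 4 RAF-type clients, BRAF rose 1.43-fold and the scaffold gene KSR1 2.78-fold, and ARAF fell 1.10-fold, 1 of 2 falls. With library totals ARAF turned to 0.15 on the log2 scale and was called higher, and 3 rose. The count of falls here was 1 when siOTP replicate 3, siRPS19 replicate 2, both replicates 1 or both replicates 3 were left out. Of 8 clients in apoptosis and the p53 circuit, 3 rose and 2 fell, and with library totals 5 rose and 2 fell. For both this list and the RAF-type clients, the background was 39.5% of all genes higher and 38.9% lower. With library totals it was 53% higher and 27.6% lower. BAX, which permeabilises mitochondria, went from 147 ± 5.78 to 270 ± 10.0 CPM, 1.84-fold higher. BBC3 rose 12.9-fold, but it stands on the list on weaker grounds, since direct binding of its protein by 14-3-3 is not well established. BAX, BBC3 and MDM2, the 3 that rose, are also on the p53 target list. The stress kinase gene MAP3K5 fell 1.66-fold and ABL1 2.11-fold. BAD, the classical death agonist held by 14-3-3, had 216, 152 and 220 counts in siOTP and 295, 306 and 248 in siRPS19, with overlapping CPM and a log2 fold change of 0.24 ± 0.13 (SE; adjusted p = 0.0978, edgeR). With library totals BAD was called higher, at 0.53 (adjusted p = 0.00134, edgeR), and with upper-quartile factors at 0.42. MDM4, a p53 inhibitor, did not pass either, at -0.17.

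Of 11 clients in growth and metabolism 5 rose and 5 fell, where 39.5% of all genes rose and 38.9% fell. With library totals 6 rose and 3 fell, where 53% of all genes rose and 27.6% fell. TSC2, the brake on mTORC1, rose 1.46-fold and PI4KB, a lipid kinase gene, 1.76-fold. TBC1D4, a regulator of glucose transporter traffic, fell 2.36-fold. AKT1S1, an mTORC1 subunit gene, did not pass, at 0.043 on the log2 scale, and was called higher with library totals, at 0.33. Of 10 clients in the cytoskeleton, polarity and mRNA decay 3 rose and 6 fell, and with library totals 4 rose and 4 fell. The shares of all genes on each scale are those just given. SSH1, a phosphatase gene of actin turnover, did not pass, at -0.0099, and was called higher with library totals, at 0.28. ZFP36L1, which promotes decay of AU-rich mRNAs, rose 2.11-fold, while its relative ZFP36 fell 1.96-fold.

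Kinases that phosphorylate 14-3-3 binding sites all changed on the TMM scale, where 78.3% of all genes did. Of 22, 9 rose and 13 fell, with a median of -0.23, where 39.5% of all genes rose and 38.9% fell. CHEK1, the checkpoint kinase that marks CDC25 proteins, went from 63.1 ± 4.08 to 9.23 ± 0.721 CPM, 6.82-fold lower, and CHEK2 fell 1.81-fold. PIM1 fell 3.47-fold and RPS6KA3 2.11-fold. LATS1, the Hippo kinase that acts on YAP1, fell 1.77-fold. PRKD2 rose 2.07-fold and STK11, a tumour suppressor gene known to be inactivated in A549, 1.74-fold. AKT2 fell 1.37-fold. AKT1, LATS2 and MAPKAPK2, with smaller log2 fold changes of -0.21 to -0.28, turned positive and did not pass with library totals. On that scale 9 kinases rose and 9 fell, where 53% of all genes rose and 27.6% fell.

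**Figure D4:**
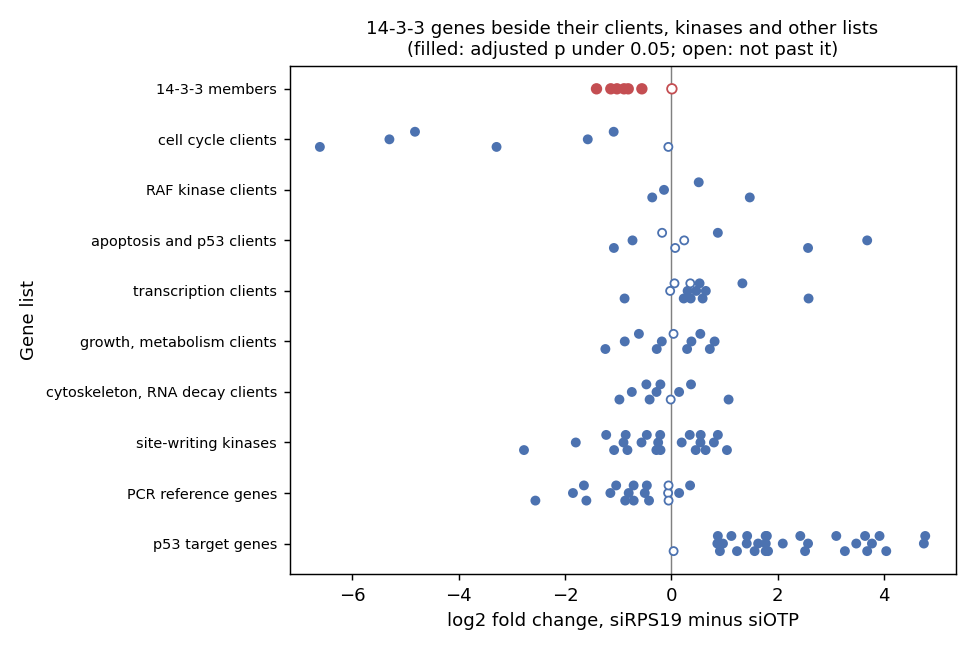
Log2 fold change of each tested gene by list, with filled points past an adjusted p of 0.05 and open points not past it. The 6 YWHA genes lie between -1.41 and -0.55 with SFN at 0.013, the cell cycle clients reach -6.61, and the p53 targets lie to the right of 0 with PLK2 nearest to it.

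YWHAZ is often used as a reference gene in quantitative PCR, so it was set beside 18 others. Of these, 13 fell, 2 rose and 3 did not pass, where 38.9% of all genes fell and 39.5% rose. Their median was -0.71 against 0.023 for all genes. The fall of YWHAZ (-1.41) was larger than those of ACTB (-1.04) and GAPDH (-1.14) and smaller than that of HPRT1 (-1.64). ACTB, the actin gene, went from 5340 ± 131 to 2606 ± 99.9 CPM and TBP, a basal transcription factor gene, from 21.8 ± 0.858 to 15.5 ± 0.641 CPM. The tubulin gene TUBB fell most, by 5.87-fold. SDHA rose 1.28-fold and B2M 1.11-fold. The count of rises was 1 when siOTP replicate 1, siRPS19 replicate 2 or both replicates 2 were left out. GUSB and IPO8 did not pass, at -0.058 and -0.051 on the log2 scale, and were called higher with library totals, at 0.23 and 0.23.

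For each member, the genes with the most similar profile were found by the root mean square distance of centred log2 CPM over the 6 libraries, among 11473 genes with a mean of at least 5 CPM. Nearest to SFN were ABHD6 (distance 0.028) and TBCC (0.034). Nearest to YWHAZ were NCAPH2 (0.020) and XPOT (0.031), to YWHAE KIAA1715 (0.011) and USP39 (0.016), and to YWHAH ERLIN1 (0.025) and VDAC1 (0.026). YWHAQ lay closest to PPM1B (0.011) and NPC1 (0.012), YWHAB to RABEPK (0.014) and ORC3 (0.017), and YWHAG to PHB (0.013) and UBE2D2 (0.014). The distance includes the difference between the groups, and the log2 fold changes of these neighbours ran from 0.061 for ABHD6 to -1.43 for NCAPH2.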

How the data were processed

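Libraries came from a TruSeq RNA kit and were read as pairs, per the labels' protocols, which do not say that strand was kept. Build hg19, TopHat2 (2.0.8b), HTSeq, R (3.0.2) and DESeq are named per the submitters' processing notes. For the counting mode and the annotation, the release or setting is not given in the sources used here. As raw data, the authors deposited whole-number read counts per gene for each library, and a table with 1 RPKM value per group, which equals the mean count plus 1 per length and group total for 100% of genes (tolerance 0.0051).

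Counts were filtered with filterByExpr (minimum count 10, minimum total 15), TMM-scaled and tested with edgeR 4.0.16 (robust quasi-likelihood, R 4.3.3), adjusted over all 17171 genes at 0.05. Entries that name no gene stayed out. Reads counted as no feature were 3.39% to 3.85% of a siOTP library and 5.13% to 6.36% of a siRPS19 library. Ambiguous reads were 8.10% to 8.24% in siOTP and 7.50% to 7.60% in siRPS19. RPKM per library was computed from TMM-scaled counts and the table's lengths, and its log2 sum and shares were compared by exact permutation. DESeq2 1.42.0, limma-voom (limma 3.58.1), other scalings and filters, a replicate block and left-out libraries were alternatives. The fit was tested on simulated data in which few genes changed, as many up as down, so that test does not bear on the scaling. Replicate pairs differed by more than sampling noise (chi-square per degree of freedom 4.40 to 16.6). Same-numbered replicates of both groups carry the same date in their description labels, which pairs them, and their deviations correlated at 0.055, -0.095 and 0.045. Members and lists (154 of 155 symbols matched) were chosen with earlier results of these data known. Named genes were the members, a fixed set from the lists, and up to 3 with the smallest p in each direction per list. A few that the rule covers are left out of the text and stay in the counts.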

Additional observations from a re-analysis of the deposited data

How the results depend on the processing

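The 6 YWHA genes fell under all 17 alternatives, and their range without any one library or replicate number was -1.45 to -1.36 for YWHAZ, -1.18 to -1.07 for YWHAH, -1.05 to -0.98 for YWHAE, -0.91 to -0.86 for YWHAB, -0.84 to -0.77 for YWHAG and -0.58 to -0.52 for YWHAQ (log2). SFN had no firm sign. Its log2 fold change was 0.30 and past the threshold with library totals, which made 1 member higher, and -0.039 with no filter. It ran from -0.11 to 0.092 with libraries left out, with -0.10 when siOTP replicate 2 was left out, -0.011 for siRPS19 replicate 2 and -0.11 for both of these. The replicate block gave 0.017 for SFN (adjusted p = 0.843, edgeR) and 6 members lower, and it changed no call of a member and no count by over 1.5 times. The summed level differed by -0.77 (log2) in the block and by -0.49 with library totals, -0.60 with upper-quartile factors and -0.90 as CPM. Shares from CPM turned for YWHAB (0.0949 points) and YWHAG (0.990 points). Among lists, library totals gave 1 cell cycle client higher, 0 RAF-type clients lower (edgeR, and 0 at an unadjusted p under 0.05), 5 apoptosis clients higher, 3 growth clients lower, 2 SFN regulators higher and 5 PCR reference genes higher. Upper-quartile factors gave 1, 5, 3, 2 and 4 for the last 5 of these. A mean of at least 1 CPM as the filter gave 1 RAF-type client lower and 2 SFN regulators higher, and no filter gave 1 reference gene higher. With libraries left out, RAF-type clients lower were 1 to 2 and reference genes higher 1 to 2. The exact tests of the main results compared 3 against 3 libraries without pairing, and their smallest p is 0.1. With the replicates as 3 pairs the smallest p is 0.25. Either way the sums and shares cannot pass 0.05 at any depth.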
